A study of Mus musculus with 6 samples.

Results

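Small nucleolar RNA (snoRNA) genes and small Cajal body RNA (scaRNA) genes were taken from the RIP-seq tables of mouse muscle stem cells (satellite cells, SCs) by their names, as every gene whose symbol begins with Snora, Snord or Scarna followed by a digit. The rule used no measured value and found 147 of the 55376 genes: 98 Snord genes of the box C/D class, 40 Snora genes of the box H/ACA class and 9 Scarna genes. RIP-seq sequences the RNA that stays on antibody-coated beads after washing. The libraries came from freshly isolated SCs (fiSCs) of C57BL/6 mice aged 3 months, sorted from hindlimb muscle, and no genotype or treatment distinguished the groups. They comprised 2 immunoprecipitations with an anti-CPEB1 antibody (CPEB1 IP), 2 with anti-IgG (IgG) and 2 of input RNA with no antibody, from 1000000 cells for an immunoprecipitation. The comparisons ask which RNAs come down with CPEB1, a protein that binds cytoplasmic polyadenylation elements (CPEs) in mRNA, beyond what a control antibody and the lysate itself give. The design text calls the CPEB1 IP and input libraries biological replicates. How many mice were pooled in a library is not given in the sources used here.

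The snoRNAs guide the chemical modification of other RNAs. Box C/D RNAs pair with a target and place 2′-O-methyl groups through the methyltransferase fibrillarin, and box H/ACA RNAs place pseudouridines through dyskerin. Most targets lie in ribosomal RNA, while scaRNAs act on spliceosomal RNAs in Cajal bodies. In mammals most snoRNAs have no promoter of their own: they are cut out of an intron of a host gene, often a gene for a ribosomal protein or a translation factor. A sequenced fragment within a snoRNA interval can therefore come from the mature snoRNA or from the host's unspliced transcript, and the counts do not tell these apart. The mature snoRNAs have no poly(A) tail, while SMART-Seq2 primes cDNA synthesis on poly(A).

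The sequences below, from GENCODE M21 transcripts on mm10, belong to members on which the results turn. In the box C/D RNAs, capitals mark box C (TGATGA) and box D (CTGA). In the box H/ACA RNAs they mark the ACA that stands 3 bases before the end. Snord92 lies at chr17:71631281-71631365 on the plus strand in an intron of 1723 bases of Wdr43, a ribosome biogenesis gene. It was called by a count test in the main fits, as was Snord55. Snord104, at chr11:106500993-106501062 on the plus strand outside any other annotated gene, had the second highest count. Snora31, at chr14:75847905-75848034 on the plus strand in an intron of 738 bases of Tpt1, and Snora43, at chr2:26637847-26637985 on the minus strand outside other genes, led the H/ACA class.
Snord92: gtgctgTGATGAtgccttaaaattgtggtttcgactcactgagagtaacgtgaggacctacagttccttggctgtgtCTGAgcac
Snord104: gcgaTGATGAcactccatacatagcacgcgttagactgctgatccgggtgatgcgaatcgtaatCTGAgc
Snora31: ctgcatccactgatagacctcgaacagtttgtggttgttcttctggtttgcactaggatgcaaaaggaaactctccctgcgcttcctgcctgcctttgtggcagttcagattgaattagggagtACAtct
Snora43: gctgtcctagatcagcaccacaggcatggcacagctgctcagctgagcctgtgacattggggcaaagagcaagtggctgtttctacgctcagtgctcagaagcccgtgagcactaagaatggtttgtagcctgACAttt

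The names and the sequences were compared first. TGATGA stood in the first 20 bases of 69 of 98 Snord genes (70.4%) and of 0 of 40 Snora genes, and CTGA stood in the last 20 bases of 96 Snord genes (98%) and 4 Snora genes (10%). ACA stood 3 bases before the end of 34 Snora genes (85%) and of 0 Snord genes. Among the other 1368 snoRNA genes of M21 the shares were 18.7% for box C, 31.6% for box D and 17.7% for ACA. The letters of the canonical CPE (TTTTAT or TTTTAAT, searched on the RNA's own strand) were present in 1 of 98 Snord genes (1.02%), 1 of 40 Snora genes (2.5%) and 0 of 9 Scarna genes, against 2.19% of the other snoRNA genes and 2.68% of 2201 miRNA genes. These are descriptions of letters in the annotated intervals. Nothing about CPEB1 binding was read from them.

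The members carried few reads. Counts on genes ranged from 1284716 in IgG to 4941653 in CPEB1 IP, and the share of the authors' library totals that fell on genes was 69.5 to 79.8% in CPEB1 IP and input but 39.1 and 39.5% in IgG. Of these, the members received 138 and 292 counts in CPEB1 IP, with 128 and 131 in IgG and 160 and 108 for input, or 957 in all. Snord55 alone held 192 of them (20.1%), the leading 5 members held 50.7% and the 23 members with 10 or more counts held 84.2%. The markers of the labelled cells were present: 10 satellite cell markers summed to 8919 to 12806 counts per 1000000 (CPM, normalized by the TMM method) and none was at 0, with Sdc4 alone at 5231 to 7133. Lists of other cells summed to 260 to 841 CPM for mural cells, 245 to 523 for fibro-adipogenic cells, 57.9 to 148 for myofibres, 41.4 to 105 for Schwann cells, 22 to 72.8 for immune cells and 103 to 150 for endothelial cells. In such bulk libraries, fewer cells of a type and less RNA per cell cannot be told apart.

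Whether a member had any count followed its overlap with annotated exons of other genes. At least 1 count over the 6 libraries was found for 62 of 147 members, and 85 were at 0. Of the 58 members lying wholly in exons of other genes, 0 had a count, with an upper limit of 6.16% (exact Clopper-Pearson, 95%). They comprised 38 Snord and 20 Snora genes. Of the 14 that lay partly in such exons, 9 had a count, 28 counts in all. Of the 75 with no base in another gene's exon, 53 had a count (70.7%, interval 59 to 80.6%), and these held 929 counts. The microRNA genes showed the same split, with 0 of 244 counted among those wholly in exons and 349 of 818 (42.7%) among those with no base in one. Whether reads shared by overlapping genes were dropped or assigned is not given in the sources used here, so a member at 0 in an exon of another gene is listed at 0 and its RNA is not shown to be absent.

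**Figure D1:**
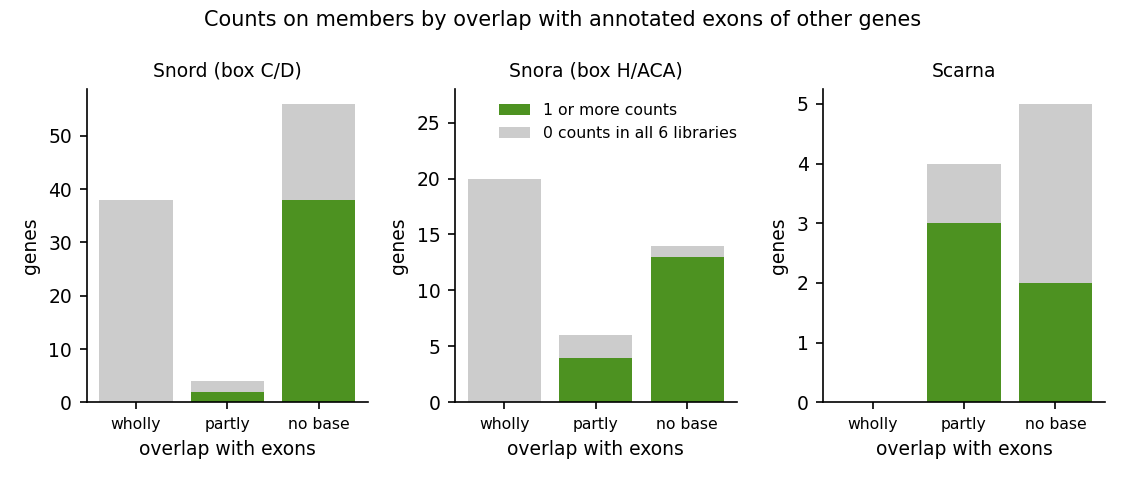
Number of Snord, Snora and Scarna genes (vertical axes, genes, scaled separately) by their overlap with annotated exons of other genes, with genes that had 1 or more counts in green and genes at 0 in all 6 libraries in grey. None of the 38 Snord and 20 Snora genes wholly in other exons had a count.

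The contrast was visible within single hosts. Rpl13a, a ribosomal protein gene, holds Snord35a with 17 counts, Snord34 with 10 and Snord32a with 4, all in introns, and Snord33, wholly in an exon, with 0. Nop56, itself the gene of a core box C/D protein, holds Snord110 with 9 counts and the exon-overlapped Snord57 with 0. Gas5, a noncoding host whose introns encode several box C/D RNAs, has Snord47, Snord78 and Snord80 wholly in its annotated exons, all at 0, although Gas5 itself was counted in every library.

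Among members with no base in other exons, counts of 0 were concentrated in 1 family. Snord116, the tandem repeat of the imprinted Prader-Willi region that is known for its expression in brain, has 17 copies in introns of Snhg14, and 16 of them were at 0. The remaining copy, Snord116l17, had 3 counts. Each copy has 62 to 70 near-identical genes (95% identity over 90% of the length), and how multi-mapping reads were handled is not given in the sources used here. Without this family, 37 of the 39 free Snord genes had a count (94.9%, interval 82.7 to 99.4%), near the 13 of 14 free Snora genes (92.9%, interval 66.1 to 99.8%).

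The leading members were ordered by their summed counts. Snord55 had 43 and 90 counts in CPEB1 IP, with 14 and 19 in IgG and 17 and 9 for input. Snord104 had 12 and 38 in CPEB1 IP, with 12 and 20 in IgG and 15 and 21 for input. These are intervals of 79 and 70 bases, and both were counted in every library. Snora31 had 11 and 18 counts in CPEB1 IP, with 10 and 14 in IgG and 26 and 17 for input. Snora43 had 8 and 14, 7 and 4, and 8 and 4 counts in the same order. Below these, no member exceeded 34 counts over the 6 libraries, and replicates of 1 group differed by several-fold in single members.

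**Figure D2:**
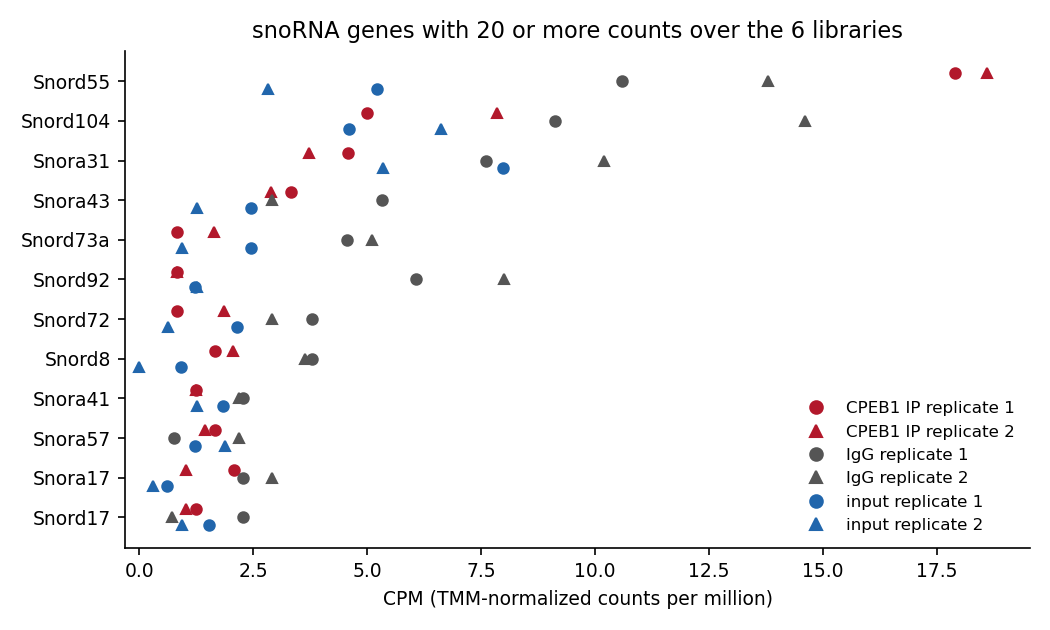
TMM-normalized CPM (horizontal axis, linear) of the snoRNA genes with 20 or more counts over the 6 libraries, with 1 point for each library, coloured by group and shaped by replicate. Snord55 is highest in the CPEB1 IP libraries, at 17.9 and 18.6 CPM, while Snord92 and Snord104 are highest in IgG.

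Snord55 had the highest level of the members in CPEB1 IP. Its level was 17.9 and 18.6 CPM in CPEB1 IP (18.2 ± 0.469, SD, n = 2), 10.6 and 13.8 CPM in IgG (12.2 ± 2.27) and 5.22 and 2.83 CPM in input (4.03 ± 1.69). The 3 groups did not overlap. Against input, Snord55 rose in CPEB1 IP by 2.22 on the log2 scale (SE 0.37, adjusted p = 0.000667, quasi-likelihood test of edgeR, adjusted by Benjamini-Hochberg over 12171 genes). It was the only one of the 3 members tested that was called in that comparison. There, 17% of all genes tested were called higher and 15.8% lower. Snord55 passed the low-count filter of this fit through the CPEB1 IP libraries, in which it is high, so nothing is read from that share. Without the filter, 1 of 55 members (Snord55) was called higher. The call remained under every alternative, with log2 fold changes of 1.84 to 2.71 and adjusted p-values of 6.03e-07 to 0.00139.

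Against IgG, the difference of Snord55 did not pass the test, at a log2 fold change of 0.51 (SE 0.34, edgeR adjusted p = 0.271). It passed only when libraries were scaled to the totals behind the authors' FPKM (1.32, adjusted p = 0.00155), a scaling that moved the median of all genes tested to 0.84. IgG itself was above input for Snord55, at a log2 fold change of 1.59 (SE 0.52, edgeR adjusted p = 0.0131), and that call was lost without IgG replicate 2 (edgeR adjusted p = 0.149), without input replicate 2 (0.15), without the low-count filter (0.0874), with the FPKM totals (0.203) and with DESeq2 (0.281). In the fit of IgG against input, Snord55 passed the low-count filter through its IgG counts, with 9 counts in input replicate 2. The comparisons share libraries and are not independent of each other.

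Snord92 showed a different order. It had 2 and 4 counts in CPEB1 IP, with 8 and 11 in IgG and 4 and 4 for input, or 0.833 and 0.826 CPM, 6.08 and 8.01 CPM, and 1.23 and 1.26 CPM. CPEB1 IP was thus the lowest group and IgG the highest, with no overlap. Snord92 fell by 3.08 on the log2 scale in CPEB1 IP against IgG (SE 0.55, edgeR adjusted p = 0.000256) and was 2.45 higher in IgG than in input (SE 0.62, edgeR adjusted p = 0.00161). It passed the low-count filter of these fits through the IgG libraries, in which it is high, and did not pass it for CPEB1 IP against input. Without the filter the log2 fold changes were -2.67 (edgeR adjusted p = 0.00912) and 2.19 (edgeR adjusted p = 0.0361). In CPEB1 IP against IgG it was the only one of 4 members tested that was called, where 14.7% of 12124 genes were called higher and 18.7% lower. Leaving out CPEB1 IP replicate 1 ended that call (edgeR adjusted p = 0.158), as did leaving out CPEB1 IP replicate 2 (edgeR adjusted p = 0.218) or IgG replicate 2 or using the FPKM totals, where the gene no longer passed the filter. The call of IgG over input was lost with DESeq2 (adjusted p = 0.2), with the FPKM totals, where the gene was not tested, and in the edgeR fits without IgG replicate 2 (adjusted p = 0.0869), input replicate 1 (0.131) or input replicate 2 (0.155).

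The Wdr43 host went the other way between the immunoprecipitations. Its level was 529 ± 26 CPM in CPEB1 IP, 387 ± 7.45 in IgG and 279 ± 12.7 in input (SD, n = 2), and it rose in CPEB1 IP by 0.38 over IgG (edgeR adjusted p = 0.00355) and by 0.97 over input (edgeR adjusted p = 0.000121) on the log2 scale. For each 100 counts on Wdr43, Snord92 had 0.152 and 0.162 in CPEB1 IP, with 1.59 and 2.04 in IgG and 0.426 and 0.466 for input. The second Wdr43 member, Snord53, had 6 counts over all libraries and was not tested.

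**Figure D3:**
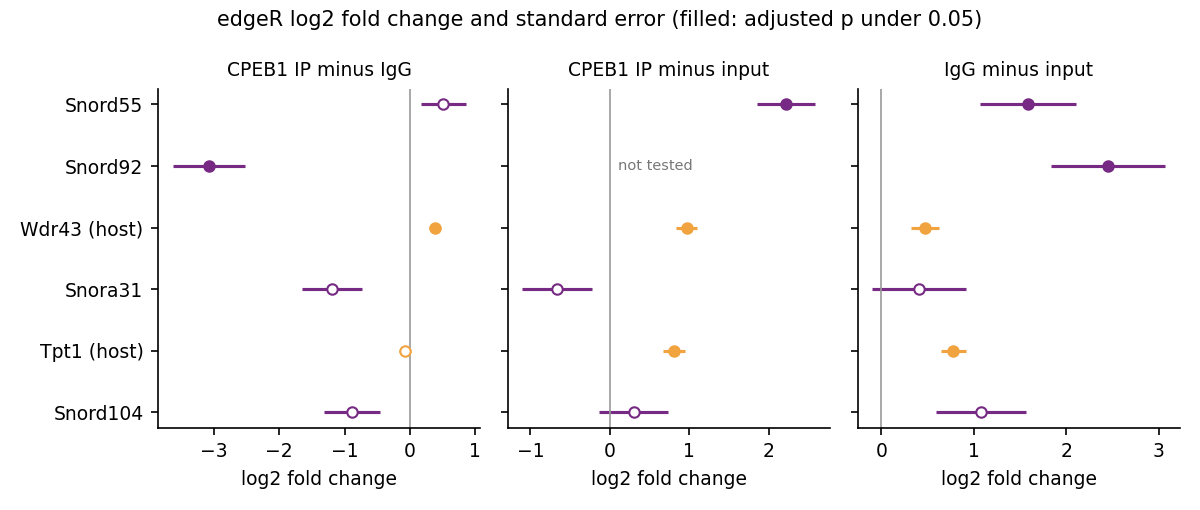
Log2 fold change from edgeR (horizontal axes, ranges differ between panels) with its standard error for 4 snoRNA genes (purple) and the hosts of 2 of them (orange) in the 3 comparisons, filled where the adjusted p is under 0.05. Snord55 lies at 2.22 over input in CPEB1 IP, while Snord92 lies at -3.08 and Wdr43 at 0.38 against IgG.

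The remaining members that could be tested did not pass. Snord104 had 5 and 7.84 CPM in CPEB1 IP, with 9.11 and 14.6 in IgG and 4.6 and 6.61 for input. Its log2 fold change was -0.89 against IgG (SE 0.43, edgeR adjusted p = 0.123) and 0.30 against input (SE 0.43, edgeR adjusted p = 0.62), and CPEB1 IP and input overlapped. Snora31, the only H/ACA gene deep enough to test, had 4.58 and 3.72 CPM in CPEB1 IP, with 7.6 and 10.2 in IgG and 7.98 and 5.35 for input. It was lowest in CPEB1 IP, with log2 fold changes of -1.19 against IgG (SE 0.46, edgeR adjusted p = 0.0518) and -0.66 against input (SE 0.44, edgeR adjusted p = 0.269). In the fit against IgG, Snora31 passed the low-count filter through the IgG libraries, in which it is high, so nothing is read from that p-value. Its host Tpt1, which encodes the translationally controlled tumour protein, had a log2 fold change of -0.08 against IgG (edgeR adjusted p = 0.521) and rose by 0.81 against input in CPEB1 IP (edgeR adjusted p = 7e-04). Snord73a, in an intron of the ribosomal protein gene Rps3a1, was tested for IgG against input only (1.47, SE 0.64, edgeR adjusted p = 0.0643).

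No member was called higher in CPEB1 IP than in IgG by edgeR, beside 14.7% of all genes tested. Of the 4 members tested, 0 had an unadjusted p under 0.05 in that direction. Snord92 and Snora31 were among the 4 because of their IgG counts, and Snord104 also needed its IgG counts to pass the filter. These counts of 0 are therefore not read as a result. With the FPKM totals edgeR called 1, Snord55, as given above. DESeq2 called 0, and the test without the low-count filter gave 1 of 61 members at an unadjusted p under 0.05 and 0 after adjustment. In IgG against input, 2 of 5 members tested were called higher, Snord55 and Snord92, against 21.4% of 12980 genes called higher and 19.4% lower. Snord92 and Snord73a were among the 5 because of their IgG counts. Snord55 also needed its IgG counts to pass, with 9 counts in input replicate 2. Nothing is therefore read from that share. Without the filter, 1 of 58 members (Snord92) was called higher. None was called lower in that comparison or in CPEB1 IP against input, by edgeR or DESeq2, and none had an unadjusted p under 0.05 in that direction in either edgeR fit.

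Counts were then summed over each class. The Snord sum was 41.7 and 45.4 CPM in CPEB1 IP, with 68.4 and 63.4 in IgG and 32.8 and 20.5 for input. The Snora sum was 15 and 13.6 CPM in CPEB1 IP, with 25.8 and 26.2 in IgG and 15.3 and 13.2 for input. Both classes were thus highest in IgG on this scale, and Snora in CPEB1 IP overlapped input. The Snord sum had a log2 ratio of -0.60 for CPEB1 IP over IgG and 0.71 over input. Without Snord55 these became -1.08 and 0.16, so that 1 gene carried most of the distance from input. For Snora the ratios were -0.86 and 0.00.

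The distance between CPEB1 IP and IgG moved with the library scaling. When the same sums were divided by the totals behind the authors' FPKM, the Snord ratio of CPEB1 IP over IgG became 0.14, with overlapping groups. For the Snord sum without Snord55, point values stayed lower in CPEB1 IP (15.5 and 18.3) than in IgG (23.4 and 19.6), at -0.34. Snord55 had the highest level of the members in CPEB1 IP, so leaving it out lowers this ratio by itself. For Snora the point values were 9.81 and 9.28 against 10.5 and 10.4, at -0.12. These Snora values rest on 36 and 66 counts in CPEB1 IP and 34 and 36 in IgG. Neither difference was tested against counting error, so nothing is read from either order. IgG over input fell from 1.31 to 0.44 for Snord and from 0.87 to -0.01 for Snora. Under that scaling the medians of all genes tested stood at 0.84 for CPEB1 IP against IgG and -0.93 for IgG against input. The microRNA genes inside introns, which are cut from introns by other enzymes, were also highest in IgG on the TMM scale, with 33.7 and 29.3 CPM in CPEB1 IP, with 113 and 89.6 in IgG and 59.8 and 29 for input. The IgG libraries also had counts on more genes, 32381 and 32328 against 20158 to 29465 in the others, at the lowest depth. The part of these features in the members' levels was not tested.

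**Figure D4:**
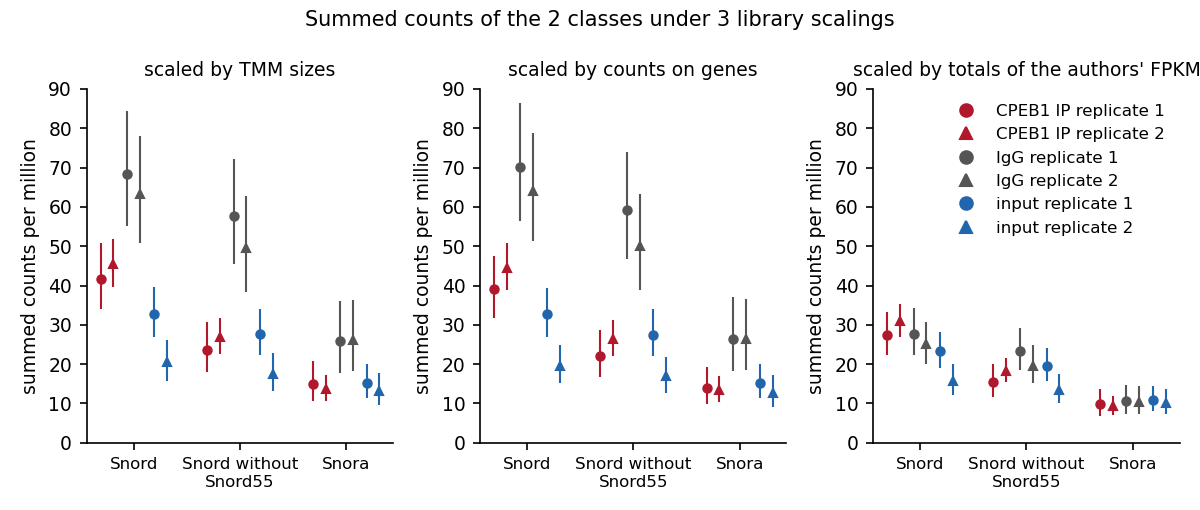
Summed counts per 1000000 (vertical axes) of all Snord genes, of Snord genes without Snord55 and of Snora genes in each library, under 3 library scalings, with exact 95% Poisson intervals. IgG is highest under TMM and under counts on genes, while under the FPKM totals the groups draw together and the Snord sums of CPEB1 IP and IgG overlap.

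A comparison of the classes within a library does not depend on scaling. For each Snora count there were 2.78 and 3.33 Snord counts in CPEB1 IP, with 2.65 and 2.42 in IgG and 2.14 and 1.55 for input. The point values of the groups were ordered without overlap, CPEB1 IP first. Snord genes held 73.5% (exact interval 65.3 to 80.7%) and 76.9% (71.6 to 81.7%) of Snord and Snora counts in CPEB1 IP. The shares were 72.6% (63.8 to 80.2%) and 70.7% (61.9 to 78.6%) in IgG. For input they were 68.2% (60.3 to 75.4%) and 60.7% (50.8 to 70%). The intervals of CPEB1 IP and IgG overlapped, as did those of IgG and input. Those of CPEB1 IP and input overlapped except between CPEB1 IP replicate 2 and input replicate 2. Outside that pair of libraries, the order is not separated from counting error. Without Snord55 the Snord counts for each Snora count were 1.58 and 1.97, 2.24 and 1.89, and 1.8 and 1.33, in the same order. CPEB1 IP then overlapped both other groups. Per kilobase, intronic Snord genes had 7.39 and 7.67 CPM in CPEB1 IP, with 12 and 9.73 in IgG and 5.7 and 2.69 for input. Without Snord55 these were 3.71 and 3.85, 9.99 and 6.95, and 4.69 and 2.14, below the intronic Snora value in every library. Intronic Snora genes had 4.95 and 5.18, 10.5 and 11.1, and 7.29 and 6.03 CPM per kilobase, and intronic microRNA genes had 0.789 and 0.685, 2.65 and 2.09, and 1.4 and 0.677. Snord and Snora intervals thus held more counts per kilobase than intronic microRNA intervals in every library.

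The Scarna genes were close to the detection limit. Their counts summed to 2 and 6 in CPEB1 IP, with 4 and 8 in IgG and 3 and 1 for input. Scarna2, a guide of the U2 spliceosomal RNA that is not in a host intron, held 17 of the 24 counts (2 and 4, 1 and 6, and 3 and 1). Scarna13, Scarna3b, Scarna6 and Scarna3a had 1 to 3 counts in all, and the other 4 were at 0. On the TMM scale the log2 ratio of the sums was -2.10 for CPEB1 IP over IgG, 0.75 over input and 2.84 for IgG over input, and with the FPKM totals -1.35, 0.64 and 1.98. CPEB1 IP and IgG, and IgG and input, did not overlap under either scaling. These ratios rest on 1 to 8 counts a library and were not tested. The independently placed Snord118, the U8 RNA of ribosomal RNA processing, and Snord13 were also nearly empty, with 1 and 4 counts.

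The rule for CPEB1-associated genes asks that FPKM in CPEB1 IP exceed 2 times the IgG value in every experiment, and that the adjusted p be under 0.05. With a pseudocount of 1, the ratio passed in both experiments for 3 of 61 members with a count, against 4.41% of 42045 genes. Snord55 had ratios of 2.69 and 2.30, from FPKM of 148 and 160 in CPEB1 IP and 54.6 and 69.2 in IgG. Snord87 (7.27 and 2.62) and Snord32a (7.57 and 2.69) each had 2 and 1 counts in CPEB1 IP and 0 and 0 in IgG. On an interval as short as Snord55, 1 count is worth 3.45 and 1.78 FPKM in the CPEB1 IP libraries and 3.90 and 3.64 in the IgG libraries. Ratios under 0.5 in both experiments were found for 4 of the 61, Snord92, Snord98, Snora62 and Scarna13. The last 3 had 0 and 0 counts in CPEB1 IP. In IgG, Snord98 had 1 and 1 counts, Snora62 had 1 and 4, and Scarna13 had 1 and 2. The share of all genes under 0.5 was not computed, so nothing is read from these 4. Both criteria were met by 0 members, also with DESeq2 and with pseudocounts of 0.1 and 5. Among the 12124 genes tested 12.1% met both, but only 4 members were tested in the main fit, so nothing is read from the difference. With the count test scaled by the FPKM totals, 1 member met both, Snord55. In the main fit 0 of the 4 members tested had an unadjusted p under 0.05 as higher in CPEB1 IP by edgeR. Snord92 and Snora31 were among these 4 because of their IgG counts, so nothing is read from that 0.

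Host introns were examined across members. In all, 67 members lay in same-strand introns of 44 hosts, 13 of them in ribosomal protein genes, and 46 had a count. Most intronic members had fewer counts per kilobase than the exons of their host: only 5 of 67 were above it in CPEB1 IP (among them Snord89, Snord116l17, Snord7 and Snord8), 8 in IgG and 3 in input (Snord89, Snord7 and Snord8). A fragment that only reaches into an interval can add to a short gene, and with 200 bases added to each length these numbers were 3, 5 and 0. Snord8, in the chromatin remodeller gene Chd8, had 36.4 and 90.9 counts per kilobase in CPEB1 IP against 8.65 and 18.7 on Chd8 exons, 45.5 and 45.5 in IgG against 6.17 and 8.9, and 27.3 and 0 in input against 8.11 and 8.35. At the other end, Snord73a had 29.4 and 118 counts per kilobase in CPEB1 IP against 2142 and 3835 on the exons of Rps3a1. Across the 46 members, which share libraries and often a host, Pearson's r between the member's level and the host's was 0.273 in CPEB1 IP, 0.205 in IgG and 0.330 in input, and Spearman's rho was 0.235, 0.285 and 0.337.

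The host mRNAs had the depth that the members lacked. Over input, 19 of 39 hosts tested were higher in CPEB1 IP and 0 were lower by edgeR, where 17% of all genes tested were called higher, and 11 and 0 with the FPKM totals. Against IgG, 10 of 39 were higher and 7 lower, where 14.7% of all genes were called higher and 18.7% lower, and with the FPKM totals, which shift all genes upward, 32 and 1. IgG against input gave 18 higher and 5 lower of 40, beside 21.4% and 19.4% of all genes, turned to 1 and 23 of 39 by the FPKM totals. Noncoding hosts were listed as Gas5 and the Snhg genes. Of 11 tested, 5 were lower and 0 higher in CPEB1 IP than in IgG, and 5 were higher than in input, beside 18.7%, 14.7% and 17% of all genes (3 higher and 1 lower against IgG with the FPKM totals). In IgG, 7 of the 11 were higher than in input and 0 lower, beside 21.4% and 19.4% of all genes. Their median log2 fold change over input was 0.61 in CPEB1 IP and 0.89 in IgG. Gas5 fell by 0.67 on the log2 scale in CPEB1 IP against IgG (edgeR adjusted p = 5.16e-05), from 691 ± 99.4 to 453 ± 7.63 CPM (SD, n = 2), but stood at 0.13 with the FPKM totals (edgeR adjusted p = 0.2). Snhg1 fell by 0.80 against IgG (edgeR adjusted p = 8.66e-05), but stood at 0.01 with the FPKM totals (edgeR adjusted p = 0.94). It was 0.81 higher than input (edgeR adjusted p = 0.00178).

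The mRNAs of the proteins that bind, assemble and trim snoRNAs were the last list, with 26 genes that all passed the filter. Of these, 9 were higher and 1 lower in CPEB1 IP than in IgG by edgeR, beside 14.7% and 18.7% of all genes, and 22 and 0 with the FPKM totals. Against input 12 were higher and 1 lower, beside 17% and 15.8%. The median log2 fold change of the list was 0.33 against IgG, beside -0.01 over all genes tested, and 0.59 against input, beside -0.00. IgG against input gave 8 higher and 3 lower, beside 21.4% and 19.4%, and 0 and 16 with the FPKM totals.

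All 4 mRNAs of the H/ACA core proteins were higher in CPEB1 IP than in input, beside 17% of all genes tested. Dkc1, the pseudouridine synthase dyskerin, had 299 ± 20.5 CPM in CPEB1 IP, 173 ± 18 in IgG and 123 ± 25.3 in input (SD, n = 2), and rose by 0.73 over IgG (edgeR adjusted p = 6.21e-05) and 1.33 over input (edgeR adjusted p = 4.91e-05). Nhp2 rose by 0.45 over IgG (edgeR adjusted p = 0.00195) and 1.54 over input (edgeR adjusted p = 7.38e-06), and Nop10 rose over both. Gar1 was the exception: it rose by 0.53 over input (edgeR adjusted p = 0.0493) but fell by 0.51 against IgG (edgeR adjusted p = 0.0307), a difference that stood at 0.30 with the FPKM totals (edgeR adjusted p = 0.153). With those totals Gar1 and Nop10 no longer passed against input (edgeR adjusted p = 0.249 and 0.106). In IgG, 3 of the 4 were also called higher than in input, beside 21.4% of all genes tested. These were Dkc1 (0.49, edgeR adjusted p = 0.0225), Nhp2 (0.97, edgeR adjusted p = 8.56e-06) and Gar1 (0.91, edgeR adjusted p = 0.00181). With the FPKM totals they stood at -0.40, 0.09 and 0.03 and did not pass (edgeR adjusted p = 0.084, 0.675 and 0.916).

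Among the 4 box C/D core genes, Nop58 and Snu13 were higher in CPEB1 IP than in IgG, by 0.35 (edgeR adjusted p = 0.00535) and 0.52 (edgeR adjusted p = 0.00144). Against input, CPEB1 IP stood at 0.02 for Nop58 (edgeR adjusted p = 0.916) and 0.15 for Snu13 (edgeR adjusted p = 0.456). IgG was below input for both, at -0.45 (edgeR adjusted p = 0.00865) and -0.49 (edgeR adjusted p = 0.0167). Fbl, the methyltransferase fibrillarin, and Nop56 rose over input (Fbl not with the FPKM totals, edgeR adjusted p = 0.1) but did not pass against IgG. Ruvbl1 and Ruvbl2, the ATPases that help to assemble these particles, rose by 1.14 and 0.61 over IgG. Nolc1, a nucleolar and Cajal body phosphoprotein, rose by 0.93 over IgG (edgeR adjusted p = 9.01e-07) and 1.44 over input. Parn, the deadenylase that trims the ends of H/ACA RNAs, fell by 1.97 in CPEB1 IP against input (edgeR adjusted p = 5.24e-05), and by 1.51 in IgG against input. Over the same libraries the counts on Snora genes summed to 15 and 13.6 CPM in CPEB1 IP and 15.3 and 13.2 in input. These counts do not tell mature H/ACA RNA from unspliced host transcript.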

How the data were processed

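RIP-seq libraries of fiSCs were grouped by their labels, 2 for each of CPEB1 IP, IgG and input. The authors mapped paired reads of 75 bases to mm10 with HISAT and counted them on genes with featureCounts. They deposited raw counts without normalization, the summed exon length, and FPKM, which the authors computed from count, length and a library total above the counts on genes. The annotation release, strand setting and handling of reads that overlap several genes or map to several places are not given in the sources used here. StringTie is also named in the submitters' processing notes.

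The count test was edgeR 4.0.16 in R 4.3.3 (filterByExpr, TMM, quasi-likelihood test, Benjamini-Hochberg adjustment at 0.05), 2 groups at a time. The standard error of a log2 fold change is its size over the root of F. CPM used TMM sizes over 14276 genes. The procedure was tested on simulated data. DESeq2 1.42.0, RLE size factors, the FPKM totals, no filter, a replicate block, 1 fit of all 6 libraries and leaving out each library were alternatives. Class sums under other scalings, the FPKM rule with the count test scaled by the FPKM totals, and host and snoRNP counts under these settings, were added after seeing the data. Overlaps and introns came from the deposited exon coordinates, and biotypes and sequences from GENCODE M21, in which all 147 members were matched. Near-identical copies came from BLAST+ 2.17.0. Intervals are exact and cover counting error only. With 2 libraries in a group, p-values rest on a spread shared across genes.

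The members, gene lists and tests were chosen with earlier results of these data known. Named genes were members called in any comparison, the 8 Snord, 8 Snora and 4 Scarna genes with the highest mean CPM, their hosts, and called snoRNP genes. Other members were named after their values were seen. One host gene and the sequences at its locus are not reported here.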

Additional observations from a re-analysis of the deposited data

How the results depend on the processing

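Of the comparisons of member counts, 66 alternative values stayed within 1.5 times the reported count and 15 did not. With the FPKM library totals, 1 member (Snord55) was higher in CPEB1 IP than in IgG, in place of 0, 0 were lower, in place of 1, and 1 (Snord55) met the FPKM ratio and this count test, in place of 0. Members higher in IgG than in input numbered 2 in the main analysis, 0 with DESeq2, 0 with the FPKM totals and 1 without the low-count filter. Leaving out 1 library gave 0 to 1 members lower in CPEB1 IP than in IgG, and 0 to 2 higher in IgG than in input: 0 without IgG replicate 2 or input replicate 2, and 1 without input replicate 1. Intronic members above their host's counts per kilobase numbered 3 in CPEB1 IP, 5 in IgG and 0 in input with 200 bases added. With the replicate block, as without it, 0 members were higher and 1 lower in CPEB1 IP than in IgG, 1 was higher in CPEB1 IP than in input and 2 were higher in IgG than in input. Same-numbered libraries did not deviate together (correlations of -0.00658, -0.0155 and 0.0254 over 19356 genes), so the numbers were not treated as pairs. Direction turned for the Snord ratio of CPEB1 IP over IgG (0.14) and the Snora ratio of IgG over input (-0.01) with the FPKM totals, for Snora31 in IgG minus input with the FPKM totals (-0.45), and for Snord104 in CPEB1 IP minus input without CPEB1 IP replicate 2 (-0.15, with values up to 0.58 when another library was left out). The 2 class ratios were not tested, and neither Snora31 nor Snord104 had passed its test. The causes were not tested. Depth limited the tests: only 3 to 5 of the 147 members could be tested in a comparison.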

Other observations

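Other small RNA genes that need no host intron were mostly empty. Terc, the telomerase RNA, which carries an H/ACA domain, had 2 counts over the 6 libraries, Rmrp had 3 and Rpph1 had 1. Rn7sk, the RNA that holds the P-TEFb kinase inactive, had 11 and 40 counts in CPEB1 IP, with 3 and 5 in IgG and 3 and 10 for input. Its level was 6.42 ± 2.6 CPM in CPEB1 IP and 2.03 ± 1.58 in input (SD, n = 2). It passed the low-count filter for this comparison through the CPEB1 IP libraries, in which it is high, and its test is not given.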
